A study of Mus musculus with 9 samples.

Results

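The mRNAs of the Rab GTPases were measured in RNA from extracellular vesicles (EVs) released by mouse embryonic fibroblasts (MEFs), in vesicles of PBS-treated cells and of control cells. Members were chosen by name alone, as genes whose array annotation was Rab followed by a number and at most 2 further characters, so that regulators such as Rabgap or Rabep genes were left out. This gave 57 genes of the 36413 gene names on the array, and 1 probe stood for each gene, that with the highest mean log2 signal over the 9 arrays. There were 5 arrays labelled PBS treated and 4 labelled Control, all of total RNA from MEF EVs in 1 colour (Cy3) on Agilent 60-mer arrays, with equal RNA mass on each. All donor cells were MEFs bought from a supplier, and no strain, allele, transgene or agent other than PBS is named for either group. The study's methods describe electroporation through a porous insert and collection of EVs in serum-free medium, but the labels do not say whether PBS-treated cells received the electric pulses, nor how control cells were handled. The labels do not say that replicates came from separate cultures either, so the p-values rest on differences between samples whose independence is not known, and that spread could be technical.

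Rab GTPases are small Ras-like proteins that mark the identity of intracellular membranes. Exchange factors load them with GTP, GTPase-activating proteins turn them off, effectors bind the GTP form to tether, move or fuse a vesicle, and a lipid tail lets GDP-dissociation inhibitors carry them between membranes. In cells that release EVs, RAB5 and RAB7 mark early and late endosomes, the compartments from which multivesicular bodies arise, and RAB11, RAB27, RAB31 and RAB35 are known for roles in the formation of intraluminal vesicles or in the docking of multivesicular bodies at the plasma membrane. The arrays measure the mRNAs of these proteins inside the vesicles, not the proteins.

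Probe sequences are shown for the member that fell most and for a pair of closely related members whose chosen probes rose by like amounts. The Rab13 probe lies in the coding sequence and its capitals mark codons of the switch I loop, the stretch that changes shape with GTP and contacts effectors. The Rab8a and Rab10 probes cover the same stretch of 39 bases in these related genes, at the motif that holds the guanine base. There 27 of the 39 bases are identical (69.2%), and the capitals mark the 12 that differ.
Rab13, mm9 chr3:90024884-90024943, plus strand: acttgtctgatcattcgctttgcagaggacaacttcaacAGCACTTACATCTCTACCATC
Rab8a, mm9 chr8:74700227-74700286, plus strand: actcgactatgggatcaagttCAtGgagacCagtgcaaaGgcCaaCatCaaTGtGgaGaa
Rab10, mm9 chr12:3252628-3252687, minus strand: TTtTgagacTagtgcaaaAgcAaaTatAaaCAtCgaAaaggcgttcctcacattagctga
The longest run of bases identical between the Rab8a and Rab10 probes was 8. Between the chosen probes of any 2 of the 43 tested members it was 10 of 60 bases.

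The 9 arrays lay on 2 slides, each with both groups. Slide 1 held 3 PBS-treated and 2 control arrays, and slide 2 held 2 of each. Between 12584 and 19233 of 55681 probes were well above background per array. Control replicates 3 and 4, both on slide 2, stood apart with the lowest shares (22.8% and 22.6%), against 27.4% and 27.9% for control replicates 2 and 1 and 29.6% to 34.6% for the PBS-treated arrays. Of 10 fibroblast markers, 7 were well above background on all 9 arrays, among them Vim, Dcn, Col1a1 and Pdgfra, and Thy1 was so on none. The summed linear signal of the 10 ran from 12.2 to 14.4 in PBS-treated and from 11.4 to 13.9 in control EVs, as multiples of each array's 75th percentile, but the markers did not move together. Of 9 tested, Dcn (2.03) and Lum (detected on no control array) were called higher, Col1a1 (-1.35), Pdgfra (-1.95) and Fn1 (-1.17) fell on the log2 scale, and the median was -0.44. Leukocyte markers were lower in PBS-treated EVs, with sums over the 8 of 0.846 to 1.75 against 2.14 to 3.21. Of 4 tested, Csf1r (-2.70) and Itgam (-1.30) fell and none rose. Itgam and Cd3e were well above background on all 9 arrays, and Csf1r on 4 arrays of each group. The defining Ptprc was above background on 1 array and Emr1, Cd68 and Lyz2 on none. Endothelial sums over 4 markers were 0.0997 to 0.137 against 0.239 to 0.411. Kdr (-1.43), detected on all 9 arrays, and Pecam1 (-1.81), on 1 PBS-treated and 4 control arrays, fell. Cdh5 and Tek were detected on no array. Epithelial sums over 5 were 0.0258 to 0.053 against 0.059 to 0.114. Krt19 (-0.93), detected on 3 PBS-treated and 2 control arrays, fell, and Epcam, Cdh1 and Krt18 were detected on none. The part of these shifts in the Rab results was not tested.

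More Rab mRNAs, like more probes over the whole array, were detected in PBS-treated EVs. The number of the 57 members well above background was 44, 44, 42, 41 and 45 in PBS-treated replicates 1 to 5, and 39, 39, 31 and 29 in control replicates 1 to 4. Every PBS-treated array held more detected members than any control array. The means were 43.2 ± 1.64 (SD, n = 5) and 34.5 ± 5.26 (SD, n = 4), a difference of 8.7 (two-sided exact permutation test, p = 0.00794, the smallest these numbers of arrays allow). The share of all probes detected moved in the same way, from 22.6% to 27.9% in control arrays and from 29.6% to 34.6% in PBS-treated arrays. For the members it was 50.9% to 68.4% and 71.9% to 78.9%. The member share counts only the brightest probe of each gene, so the levels of the shares cannot be set against each other. More detection in PBS-treated EVs was thus not particular to the Rab genes, and the part of the total in the difference was not tested. The difference was 4.33 within slide 1 and 13 within slide 2, and 8.19 with slide as a stratum (exact p = 0.0167). Within a slide the smallest exact p is 0.1 or 0.333. Without control replicates 3 and 4 the difference was 4.2 (exact p = 0.0476).

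**Figure D1:**
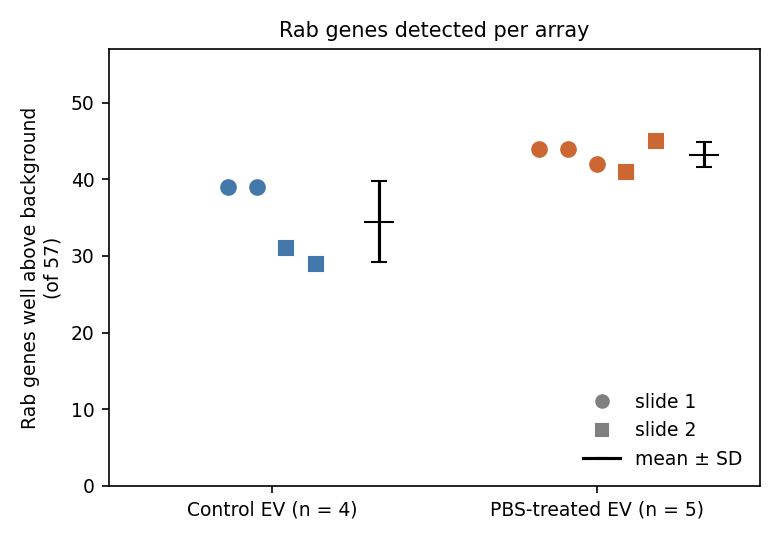
Number of the 57 Rab genes well above background on each array (vertical axis, from 0), by group, with circles for slide 1, squares for slide 2 and bars for the mean ± SD. The 5 PBS-treated arrays lie between 41 and 45, above all 4 control arrays (29 to 39), and the 2 lowest controls are those on slide 2.

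In all, 26 members were well above background on all 9 arrays and 9 on none. These 9 were Rab17, Rab19, Rab25, Rab26, Rab33a, Rab36, Rab38, Rab39 and Rab39b, among them genes known from epithelial (Rab17, Rab25), melanocyte (Rab38) or neuronal (Rab39b) cells. Another 5 were detected on 1 to 3 arrays: Rab20, Rab27a and Rab44 on 1 PBS-treated array each, Rab37 on 3 PBS-treated arrays and Rab9b on 2 control arrays. These 14 were not tested. The other 43 were well above background on at least 4 arrays, the filter used for all genes. Of these, Rab21, Rab23, Rab27b and Rab40b were detected on no control array and passed the filter through PBS-treated arrays alone, so that a difference in their favour was built in.

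Rab mRNAs were mostly more abundant in PBS-treated EVs, with Rab5a, Rab6, Rab30, Rab32, Rab9 and Rab18 up by between 3.85-fold and 4.7-fold, while Rab13 was 6.84-fold lower and Rab43 3.22-fold lower. Of the 43 tested members 24 rose (55.8%; 31.6% of all 14284 genes tested rose), 3 fell (6.98%; background 20.7%) and 16 did not pass the test, at an adjusted p under 0.05 by limma over all genes tested. Calls in either direction took 52.3% of all genes tested. The arrays of the groups did not overlap for 27 members (62.8%; background 47%), and in 23 of these all PBS-treated arrays were above. The median log2 difference over the 43 was 0.96, against -0.02 over all genes tested. The 24 rises include Rab23, Rab27b and Rab40b, which were detected on no control array, so that their rise was built in by the filter. Of the 39 tested members detected on at least 1 control array, 21 rose, with a median of 0.87. The shares over all genes were not restricted in this way. With the 4 members that were detected on no control array set at their bound, the median was 0.80. Restricted to genes well above background on all 9 arrays, 16 of 26 members rose and 3 fell, with a median of 0.99, while 2363 of all 7169 such genes rose and 2119 fell (29.6%, median -0.07). Every array held an equal mass of RNA, and a difference here is relative to the array's 75th percentile of detected probes. Against the spike-in control probes that percentile was itself higher in PBS-treated arrays (log2 -3.96 to -3.76) than in control arrays (-5.20 to -5.05). A fall is thus not always a lower signal against the spike-in probes. A change in the number of vesicles cannot be told apart from a change in RNA per vesicle.

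**Figure D2:**
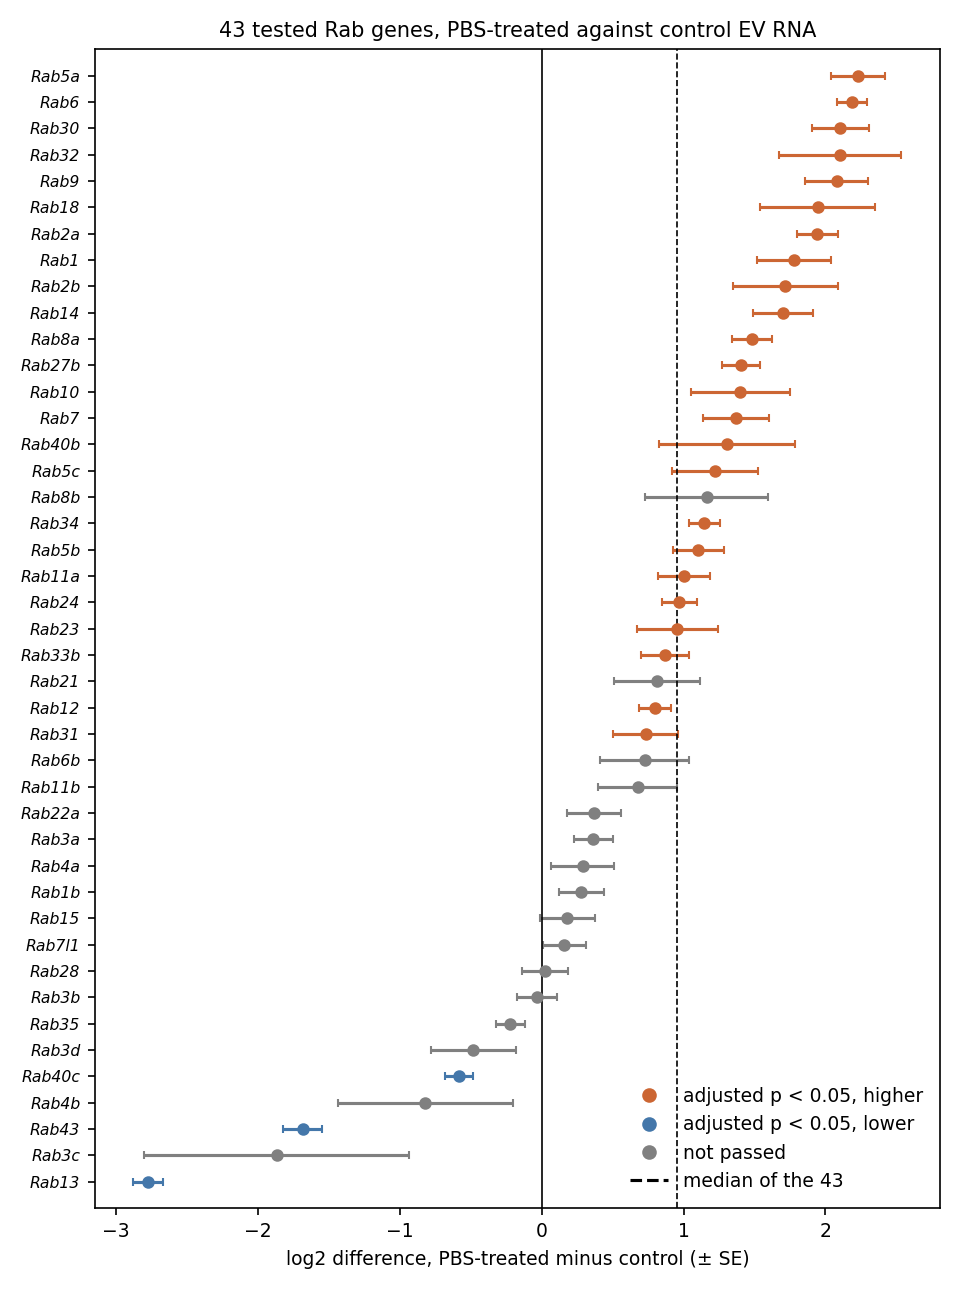
Log2 difference between PBS-treated (n = 5) and control EVs (n = 4) with its standard error for the 43 tested Rab genes, ordered by size and coloured by call at an adjusted p under 0.05. The points run from -2.77 (Rab13) to 2.23 (Rab5a), and the dashed line is their median, 0.96.

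These counts depended on the scale. Relative to the spike-in control probes, the median over all genes was 1.26 and that of the members 2.23, with 39 members higher and 2 lower, while 62.4% of all genes tested were higher and 5.03% lower. With normexp background correction and the same percentile, the median over all genes was -0.51 and that of the members 0.10, with 12 higher and 9 lower, while 13.2% of all genes were higher and 32.6% lower. In the authors' own normalised values it was 0.10 over all genes and 0.52 over the members, with 22 higher and 2 lower, while 26.2% of all genes were higher and 13.2% lower. The median of the members lay above that of all genes by 0.42 to 0.99 under these and each of the other scalings tried. With detection on at least 1 array the median was 0.81 over the members and -0.31 over all genes. Without a filter these medians were 0.37 and -1.11. Only Rab13 and Rab43 were lower past the threshold under every alternative. The GC content of the probe moved with the difference: across the 43 members Spearman's rho was -0.431, and across all genes tested, which share the arrays, it was -0.311. Members that rose had a median probe GC of 38.3% and the other tested members 43.3%. The median difference of the 12344 genes with probe GC in the members' range (35% to 53.3%) was 0.11. The part of GC content in the result was not tested.

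**Figure D3:**
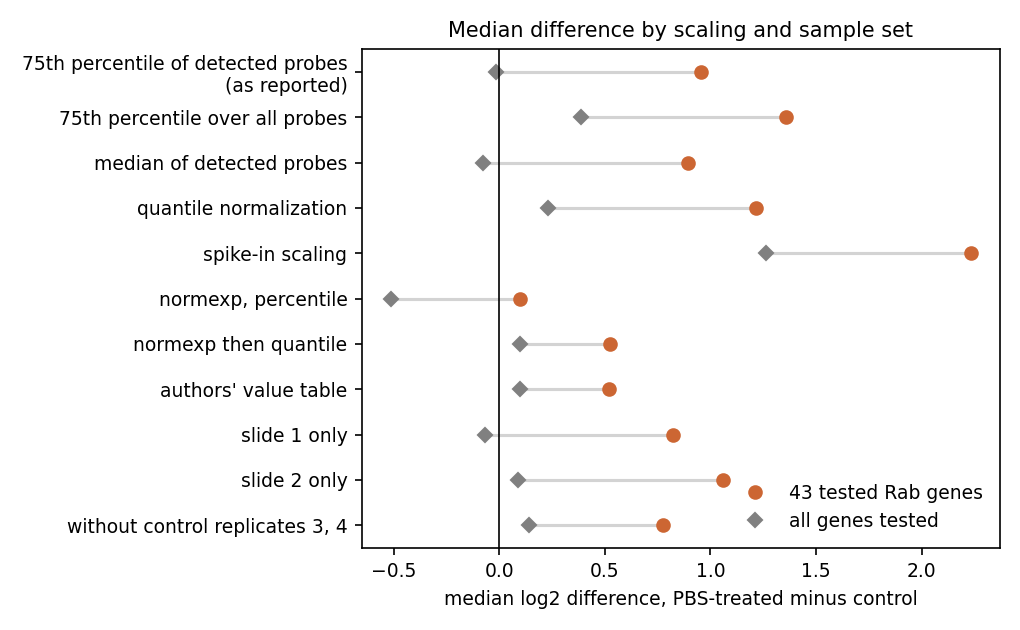
Median log2 difference between PBS-treated and control EVs over the 43 tested Rab genes (circles) and over all genes tested (diamonds), under 8 ways of scaling and background correction and 3 restrictions of the samples. The circle lies right of the diamond in each line, while both move by over 1 log2 unit between normexp with a percentile and spike-in scaling.

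Of the 8 genes of the early endosome group 6 were tested. Of these, 4 rose (66.7%; 31.6% of all genes tested rose) and none fell (background 20.7%), with a median of 0.96. The role groups hold few genes, and their difference from all genes was not tested. RAB5A drives fusion of early endosomes and the uptake of endocytosed cargo. On the normalised log2 scale, where 0 is the 75th percentile of the probes detected on all arrays, Rab5a was at -3.12, -2.98, -3.86 and -3.63 in control replicates 1 to 4 and at -1.19, -1.09, -1.08, -1.27 and -1.20 in PBS-treated replicates 1 to 5. All PBS-treated arrays were above all control arrays and close together, and the slide 2 controls were lowest. The log2 difference was 2.23 ± 0.19 (SE, as for all differences that follow; adjusted p = 3.27e-05), or 4.7-fold, with 1.93 within slide 1 and 2.51 within slide 2. A second Rab5a probe gave 2.55 ± 0.15. Other members rose more under some scalings: in the authors' values Rab6 was at 1.91 and Rab5a at 1.59.

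Its paralogs Rab5b and Rab5c rose less, by 1.10 ± 0.18 (adjusted p = 9.28e-04) and 1.22 ± 0.30 (adjusted p = 0.009). A second Rab5b probe detected on 8 arrays gave -0.07 ± 0.39 and did not pass, so that these 2 probes of the gene disagreed, and under normexp with a percentile the chosen Rab5b probe gave 0.33 (adjusted p = 0.13). RAB31, which acts between the Golgi and early endosomes and in the budding of intraluminal vesicles, was the weakest rise. Rab31 was at -3.10, -3.54, -3.68 and -4.22 in control replicates and at -2.78, -2.76, -3.28, -2.86 and -2.83 in PBS-treated replicates. PBS-treated replicate 3 was below control replicate 1, so the groups overlapped, and 3 of the 4 control arrays detected Rab31. The difference was 0.73 ± 0.23 (adjusted p = 0.0246), 0.38 within slide 1 and 1.11 within slide 2. It was lost under 11 of 28 alternatives and its sign turned to -0.05 under normexp with a percentile. Without control replicates 3 and 4 it was 0.42 (adjusted p = 0.128). Rab22a, the close relative of Rab31 (0.37 ± 0.19, adjusted p = 0.135), did not pass. Neither did Rab21 (0.81 ± 0.30, adjusted p = 0.0513), a regulator of integrin uptake that was detected on no control array.

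In the late endosome and lysosome group, 4 of 5 tested members rose (80%; background 31.6%) and none fell (background 20.7%), with a median of 1.37. RAB7 governs the maturation of late endosomes and their fusion with lysosomes. Rab7 was at -3.21, -3.16, -3.19 and -2.75 in control replicates and at -1.80, -1.72, -2.34, -1.48 and -1.19 in PBS-treated replicates. Control replicate 4 lay above the other controls and PBS-treated replicate 3 was lowest in its group, yet the groups did not overlap. The difference was 1.37 ± 0.23 (adjusted p = 0.00123), 1.23 within slide 1 and 1.63 within slide 2. Under normexp with a percentile it was 0.62 (adjusted p = 0.196).

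RAB9 returns receptors from late endosomes to the trans-Golgi network. Rab9 was at -2.0, -1.85, -2.79 and -2.79 in control replicates and at -0.23, -0.23, -0.24, -0.38 and -0.31 in PBS-treated replicates. The PBS-treated arrays lay within a narrow band well above the controls, of which those on slide 2 were lower. The difference was 2.08 ± 0.22 (adjusted p = 9.89e-05), 1.69 within slide 1 and 2.45 within slide 2, and the other 2 Rab9 probes gave 2.21 ± 0.38 and 1.44 ± 0.12. RAB32 acts on lysosome-related organelles and mitochondria. Rab32 was at -3.71, -3.85, -5.66 and -5.29 in control replicates and at -2.48, -2.38, -3.09, -2.33 and -2.35 in PBS-treated replicates. PBS-treated replicate 3 was low in its group, and the slide 2 controls were far below those of slide 1. Only 2 of the 4 control arrays detected Rab32, so that its control values lie partly near background. The difference was 2.10 ± 0.43 (adjusted p = 0.00348), with 1.13 within slide 1 and 3.14 within slide 2, 1.25 without control replicates 3 and 4, and 0.49 under normexp with a percentile (adjusted p = 0.134). Rab24, known for a role in autophagy, rose by 0.97 ± 0.12 (adjusted p = 2.75e-04), with 0.40 under normexp with a percentile (adjusted p = 0.109). Rab7l1, named Rab29 in RefSeq, did not pass (0.16 ± 0.15, adjusted p = 0.402).

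In the endoplasmic reticulum and Golgi group, 9 of 14 tested members rose (64.3%; background 31.6%) and 2 fell (14.3%; background 20.7%), with a median of 1.23. Rab28, Rab40b and Rab40c were counted in this group, though the group name may not describe them. The 9 include Rab40b, whose rise was built in by the filter, and the 2 falls include Rab40c. RAB6, named Rab6a in RefSeq, moves vesicles from the Golgi towards the endoplasmic reticulum and the plasma membrane. Rab6 was at -2.82, -2.99, -3.03 and -3.01 in control replicates and at -0.68, -0.68, -0.74, -0.85 and -0.91 in PBS-treated replicates. Both groups were tight and far apart, and slides hardly differed. The difference was 2.19 ± 0.11 (adjusted p = 2.31e-06), 2.20 within slide 1 and 2.14 within slide 2, the smallest p of any member that rose. A second Rab6 probe, detected on 4 PBS-treated arrays and no control array, gave 1.09 ± 0.34. RAB30 is a Golgi protein. Rab30 was at -5.65, -5.57, -6.43 and -6.32 in control replicates and at -3.85, -3.93, -3.92, -3.95 and -3.81 in PBS-treated replicates. Of the 4 control arrays only 2 detected it. The difference was 2.10 ± 0.20 (adjusted p = 5.46e-05), 1.71 within slide 1 and 2.50 within slide 2, but under normexp with a percentile it was 0.10 (adjusted p = 0.687), and a second probe detected on no control array gave 0.30 ± 0.35.

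RAB18 sits on the endoplasmic reticulum and on lipid droplets. Rab18 was at -2.88, -2.70, -2.22 and -4.51 in control replicates and at -1.13, -1.05, -1.27, -1.17 and -1.03 in PBS-treated replicates. Control replicate 4 was the lowest control, and all controls were below all PBS-treated arrays. Of the 4 control arrays 3 detected Rab18. The difference was 1.94 ± 0.41 (adjusted p = 0.00385), 1.64 within slide 1 and 2.26 within slide 2 (adjusted p = 0.0841 on slide 2 alone). RAB2B, a Golgi protein also tied to vesicle release, was at -4.40, -4.53, -4.91 and -6.32 in control replicates and at -3.34, -3.42, -3.02, -3.41 and -3.41 in PBS-treated replicates. Control replicate 4 was again the lowest, and only 2 of the 4 control arrays detected Rab2b. The Rab2b difference was 1.72 ± 0.37 (adjusted p = 0.0044), 1.20 within slide 1 and 2.20 within slide 2, 1.14 without control replicates 3 and 4, and 0.14 under normexp with a percentile (adjusted p = 0.446).

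Of the regulators of transport between the endoplasmic reticulum and the Golgi, Rab2a rose by 1.94 ± 0.14 (adjusted p = 1.57e-05) and Rab1, named Rab1a in RefSeq, by 1.78 ± 0.26 (adjusted p = 5.19e-04). Rab34, a Golgi and cilium protein, rose by 1.15 ± 0.11 (adjusted p = 5.28e-05), and Rab33b, which links the Golgi to autophagy, by 0.87 ± 0.17 (adjusted p = 0.00265), with 0.11 under normexp with a percentile (adjusted p = 0.586). Rab40b was called higher (adjusted p = 0.0482), but it was detected on no control array and its bound gave no fold. The call was kept in 14 of 28 alternatives, and the sign turned under normexp with a percentile (-0.59). Rab1b, Rab6b and Rab28 did not pass (0.28 ± 0.16, 0.73 ± 0.31 and 0.02 ± 0.16).

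Against this, Rab43 and Rab40c fell. RAB43 acts in transport between the endoplasmic reticulum and the Golgi. Rab43 was at -0.27, -0.27, -0.75 and -0.48 in control replicates and at -1.98, -2.13, -2.08, -2.28 and -2.20 in PBS-treated replicates. Every PBS-treated array was below every control array. The difference was -1.69 ± 0.14 (adjusted p = 2.46e-05), -1.79 within slide 1 and -1.62 within slide 2, and its second probe was detected on no array. RAB40C carries a SOCS box and serves in a ubiquitin ligase. Rab40c was at -1.72, -1.83, -1.84 and -1.76 in control replicates and at -2.44, -2.40, -2.41, -2.31 and -2.29 in PBS-treated replicates. The groups were tight and did not overlap. The difference was -0.58 ± 0.10 (adjusted p = 0.00107), -0.64 within slide 1 and -0.50 within slide 2, whereas against the spike-in probes Rab40c was higher by 0.69.

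Members of recycling and of polarised delivery to the plasma membrane were mixed, with a median of 0.80. Of 13 tested, 6 rose (46.2%; background 31.6%), Rab13 fell (7.69%; background 20.7%) and 6 did not pass. The rises include Rab23, whose rise was built in by the filter. RAB13 directs vesicles to tight junctions and to the leading edge, and its mRNA is known to gather in the protrusions of migrating fibroblasts. Rab13 was at -0.50, -0.36, -0.32 and -0.50 in control replicates and at -3.20, -3.21, -3.29, -3.05 and -3.23 in PBS-treated replicates. Both groups were tight, with no array between them. The difference was -2.77 ± 0.10 (adjusted p = 1.17e-06), or 6.84-fold lower, -2.80 within slide 1 and -2.73 within slide 2. It was below that of 95.9% of all genes tested. It was lower past the threshold under all 29 alternatives, with -1.50 against the spike-in probes, -2.14 under normexp with a percentile and -1.78 in the authors' values.

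RAB11A, which marks recycling endosomes, rose modestly. Rab11a was at -2.44, -2.34, -3.08 and -3.06 in control replicates and at -1.75, -1.68, -1.76, -1.75 and -1.72 in PBS-treated replicates. The PBS-treated arrays were nearly level, and the slide 2 controls lay below those of slide 1. The difference was 1.0 ± 0.18 (adjusted p = 0.00175), 0.66 within slide 1 and 1.34 within slide 2. RAB35, which works in fast endosomal recycling and in exosome release, was the member of the release set that did not rise. Rab35 was at -0.36, -0.35, -0.64 and -0.49 in control replicates and at -0.68, -0.65, -0.72, -0.65 and -0.71 in PBS-treated replicates. All PBS-treated arrays were lower than all control arrays, by a small margin. The difference of -0.22 ± 0.11 did not pass (adjusted p = 0.11), and its sign turned under 4 scalings, to between 0.02 and 1.06. It was lower past the threshold under 7 of 29 alternatives, such as array weights (adjusted p = 0.00245) and the median of detected probes (adjusted p = 0.0489), and higher past it against the spike-in probes.

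Of the rest of this group, Rab14, active between the Golgi and recycling endosomes, rose by 1.70 ± 0.21 (adjusted p = 2.42e-04). Rab8a and Rab10, which deliver cargo to the plasma membrane and the cilium and whose probes are shown above, rose by 1.48 ± 0.14 (adjusted p = 5.82e-05) and 1.40 ± 0.35 (adjusted p = 0.00919). The Rab10 value is that of its brighter probe, and the probe shown above gave 1.60 ± 0.16. A second Rab8a probe gave 0.83 ± 0.21. Without control replicates 3 and 4 Rab10 was at 1.10 (adjusted p = 0.0778), and under normexp with a percentile at 0.67 (adjusted p = 0.12). Rab12 rose by 0.80 ± 0.11. Rab23, a brake on Hedgehog signalling, was called higher (adjusted p = 0.0204), but it was detected on no control array and its bound gave no fold. With normexp and a percentile it was called lower (-0.71, adjusted p = 0.0433). Rab8b narrowly missed (1.16 ± 0.43, adjusted p = 0.0507), as its control values ran from -1.57 to -4.09. Rab11b, Rab4a, Rab4b and Rab15 did not pass, with differences of 0.68, 0.29, -0.82 and 0.18.

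Of the group of secretory granules and regulated exocytosis, 1 of 5 tested members rose (20%; background 31.6%) and none fell (background 20.7%), with a median of -0.03. That 1 rise, of Rab27b, was built in by the filter, as no control array detected it. RAB27A and RAB27B dock multivesicular bodies at the plasma membrane. Rab27b was at -6.06, -6.23, -5.72 and -5.75 in control replicates and at -4.53, -4.50, -4.52, -4.54 and -4.59 in PBS-treated replicates. It was well above background on all 5 PBS-treated arrays and on no control array. It was at least 1.91-fold higher in PBS-treated EVs (adjusted p = 5.35e-05), with log2 differences of 1.63 within slide 1 and 1.17 within slide 2. A second probe, also detected on all 5 PBS-treated and no control arrays, gave 0.59 ± 0.77 and did not pass, and under normexp with a percentile the sign turned to -0.37. Rab27a was detected on PBS-treated replicate 5 alone and was not tested. Its values were -7.32, -7.22, -4.97 and -6.16 in control replicates and -7.89, -8.26, -8.07, -7.58 and -4.82 in PBS-treated replicates, which overlapped.

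The Rab3 genes, known from synaptic and secretory vesicles, did not pass: Rab3a 0.36 ± 0.14 (adjusted p = 0.053), Rab3b -0.03 ± 0.14, Rab3d -0.48 ± 0.30 and Rab3c -1.87 ± 0.94 (adjusted p = 0.127). Rab3c was split by slide in both groups, between -4.84 and -5.33 on slide 1 against -2.79 and -2.68 on slide 2 in controls, and between -6.68 and -7.31 against -3.72 and -4.32 in PBS-treated EVs. With slide as a block it fell by 1.60 (adjusted p = 2.58e-04). With that block 28 members rose and 4 fell, while 35.5% of all genes rose and 34.2% fell: the additions were Rab3a, Rab6b, Rab8b and Rab21 among the rises and Rab3c among the falls.

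**Figure D4:**
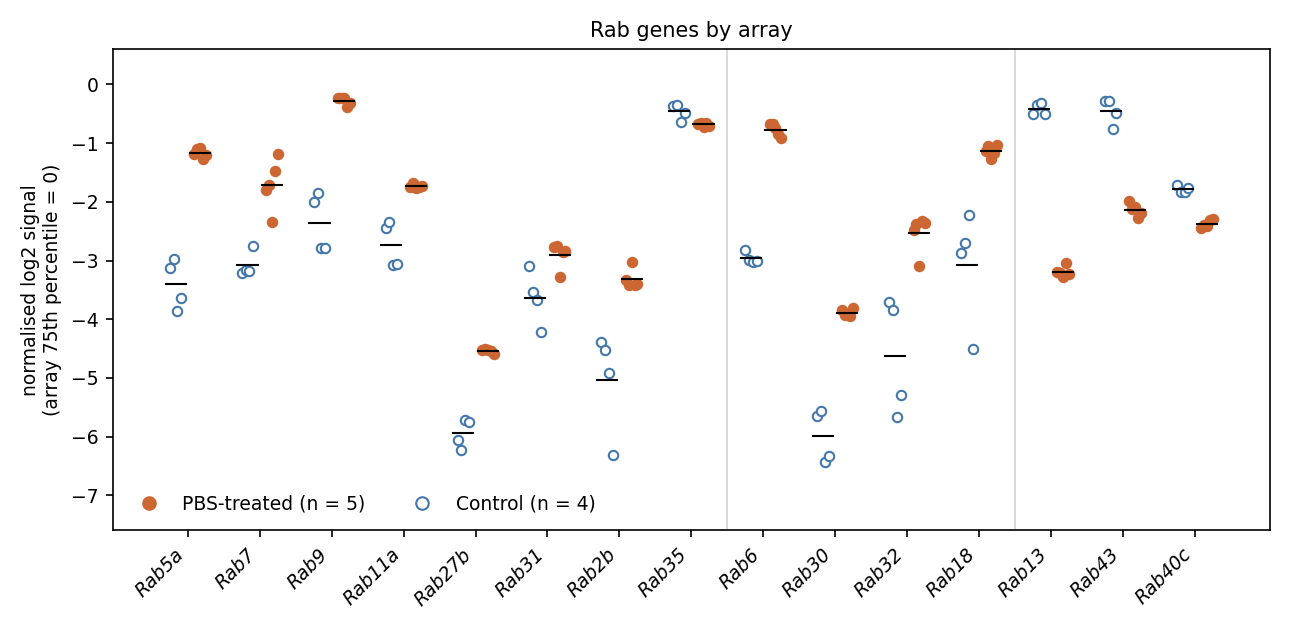
Normalised log2 signal (0 is the array's 75th percentile of detected probes) of 15 Rab genes on each control (open circles, n = 4) and PBS-treated array (filled, n = 5), with bars at the group means. From left to right stand 8 genes known in EV release, 4 others of the largest rises and the 3 falls. Rab13 lies between -0.32 and -0.50 in controls and between -3.05 and -3.29 in PBS-treated EVs, while for Rab31 the groups overlap.

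Of the 9 members known in EV release (Rab2b, Rab5a, Rab7, Rab9, Rab11a, Rab27a, Rab27b, Rab31 and Rab35), 8 were tested, 7 rose and none fell, with a median of 1.39 (31.6% of all genes rose). The rise of Rab27b was built in by the filter, and without it 6 of 7 rose. This set was written with earlier results of these data known, and its count is a description.

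In 5 pairs of closely related Rab genes the members changed by different amounts. For 13 of 18 listed pairs of relatives both genes were tested, and the log2 ratio within each array was compared between groups, which leaves out the scaling of the array. The ratio differed in the 5 (two-sided exact permutation test, p = 0.00794 each, the smallest these numbers of arrays allow; adjusted p = 0.0206 over the 13 pairs). The pairs were listed with earlier results of these data known, which the adjustment does not take into account. Rab1 moved apart from Rab1b, another regulator of transport from the endoplasmic reticulum: the log2 ratio was 2.35 ± 0.18 (SD) in PBS-treated and 0.85 ± 0.36 in control EVs. The ratio of Rab6 to Rab6b, a form known mainly from neurons, was 3.70 ± 0.28 against 2.24 ± 0.56. That of Rab5a to Rab5b was 1.29 ± 0.11 against 0.16 ± 0.33, and that of Rab5a to Rab5c was -1.17 ± 0.41 against -2.18 ± 0.19. The ratio of Rab3a to Rab3d was 0.51 ± 0.17 against -0.33 ± 0.76, and here control replicate 4 (-1.44) lay far from the other controls (-0.24 to 0.25). Rab6b and Rab3a were each detected on only 2 of the 4 control arrays, and Rab5b and Rab3d on 3. The control ratios of their pairs thus rest partly on probes near background.

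The change in the ratio was positive within both slides for each of the 5 pairs, from 0.38 to 1.72 on slide 1 and from 1.24 to 1.94 on slide 2, the lowest and the highest on slide 1 being those of Rab3a/Rab3d and Rab6/Rab6b. Each ratio is of 2 probes, and with all probes of each gene averaged the change for Rab6/Rab6b was 0.92 (adjusted p = 0.0737). Under normexp with a percentile Rab5a/Rab5b (0.94, adjusted p = 0.0516), Rab5a/Rab5c (0.20, adjusted p = 0.745) and Rab3a/Rab3d (0.32, adjusted p = 0.103) did not pass by the exact test. Rab40b and Rab40c had opposite calls, but their ratio did not pass (change 1.89, exact p = 0.0317, adjusted p = 0.0688) and changed by 3.03 on slide 1 and 0.52 on slide 2. It passed under quantile normalisation and normexp then quantile (adjusted p = 0.0413 in each) and in the authors' values (adjusted p = 0.0258), and Rab40b was detected on no control array. Rab5b/Rab5c changed by -0.12 (exact p = 0.603) and Rab8a/Rab10 by 0.08 (exact p = 0.865), with SDs of the ratio of 0.27 to 0.68 within groups. For the other 5 pairs adjusted p was 0.162 to 0.765.

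**Figure D5:**
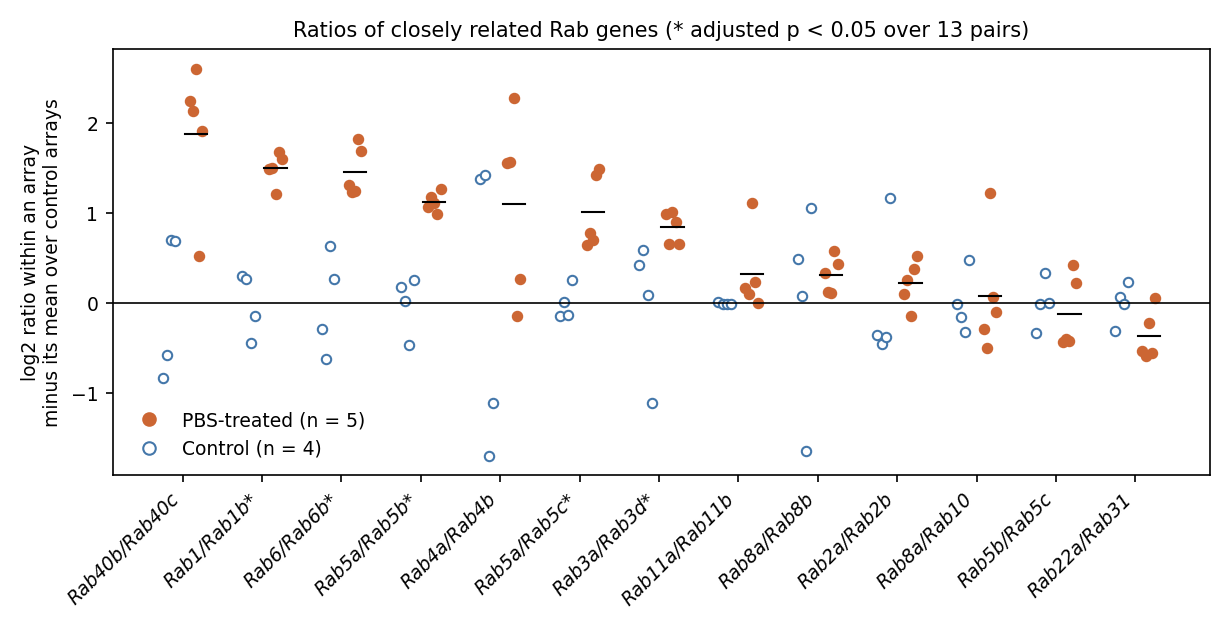
Log2 ratio of related Rab genes within each array, less its mean over the control arrays, for the 13 pairs with both genes tested (open circles control, n = 4, filled circles PBS-treated, n = 5, bars at PBS-treated means). Stars mark the 5 pairs with an adjusted p of 0.0206, in which all PBS-treated arrays lie above all control arrays.

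The genes that act on Rabs were called about as often, and about as often in each direction, as genes at large. Of 122 such genes on the array 87 were tested: 26 rose (29.9%, background 31.6%), 18 fell (20.7%, background 20.7%) and 43 did not pass, with a median of -0.15. No test of the difference from the Rab genes was run.

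Among the GTPase-activating proteins, 8 of 26 tested rose (30.8%; background 31.6%) and 6 fell (23.1%; background 20.7%). Tbc1d15, which acts on RAB7, rose by 2.63 ± 0.21 (adjusted p = 2.49e-05), and Tbc1d8b was at least 2.53-fold higher. Tbc1d8b was detected on no control array and passed the filter through PBS-treated arrays alone, as did 1 other of the machinery genes called higher, Rabgap1l, so that a difference in their favour was built in. Tbc1d16 fell by 4.94 (SE 0.36, adjusted p = 1.47e-05) and Tbc1d22a by 3.21 (SE 0.16, adjusted p = 2.65e-06) on the log2 scale. Only 1 of the 5 PBS-treated arrays detected Tbc1d16, and its difference was -2.51 under normexp with a percentile and -1.78 in the authors' values. Of 37 tested effectors 13 rose (35.1%; background 31.6%) and 7 fell (18.9%; background 20.7%). Micall2, which binds RAB13 and RAB8, rose by 2.38 ± 0.13 (adjusted p = 3.69e-06) and Rilpl2 by 1.41 ± 0.11 (adjusted p = 1.68e-05). Micall1, an organiser of recycling endosomes, fell by 3.28 (SE 0.24, adjusted p = 1.50e-05) and the RAB11 effector Rab11fip5 by 2.67 (SE 0.27, adjusted p = 7.30e-05).

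Of 19 tested exchange factors 4 rose (21.1%; background 31.6%) and 4 fell (21.1%; background 20.7%). Rabgef1, which loads RAB5, rose by 1.28 ± 0.11 (adjusted p = 3.54e-05) and Rab3il1 by 1.13 ± 0.31 (adjusted p = 0.0148). Dennd5b fell by 1.85 (SE 0.25, adjusted p = 3.25e-04) and Rab3ip, which loads RAB8, by 0.77 (SE 0.13, adjusted p = 0.00121). Of the 5 tested genes of prenylation and membrane cycling, Gdi2, which extracts inactive Rabs from membranes, rose by 1.04 ± 0.17 (adjusted p = 9.72e-04), and Rabac1, which recruits them to membranes, fell by 0.87 (SE 0.10, adjusted p = 1.22e-04). Against the spike-in probes Rabac1 and Rab3ip were higher, by 0.41 and 0.51. Under normexp with a percentile Tbc1d8b and Rab3il1 had the opposite sign (-0.05 and -0.19), and Rilpl2 (0.39, adjusted p = 0.112) and Rabgef1 (0.41, adjusted p = 0.129) did not pass. Dennd5b did not pass against the spike-in probes (-0.57, adjusted p = 0.0765). Tbc1d15, Micall2, Rilpl2, Rabgef1 and Rab3il1 were each detected on only 2 of the 4 control arrays.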

How the data were processed

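EV RNA of 5 PBS-treated and 4 control MEF samples was hybridised to 1-colour Agilent arrays. The deposited scanner files, per the file headers from Agilent Feature Extraction 10.7.3.1 with probes placed on mm9, hold processed intensity values (background subtracted by the software), and the deposited value table holds log2 values normalised by the authors by a method not given in the sources used here. In each array it kept the order of the mean signal (Spearman's rho of 1) and had a median of 5.97, so scale and direction are clear. Non-control probes (55681) were expressed as log2 processed intensity minus the array's 75th percentile taken over those 8422 that all arrays detected (well above background). No spot was saturated, and 3 to 29 non-uniform spots per array were left out.

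For each gene name the probe of highest mean log2 signal was kept, and genes well above background on at least 4 arrays were tested (14284) with limma 3.58.1 in R 4.3.3 (lmFit and eBayes, group only), with Benjamini-Hochberg adjustment over all of them and a threshold of 0.05. Differences are PBS-treated minus control. Counts of detected members and within-array ratios were compared by exact permutation tests over all splits of the arrays. A bound ("at least") is given where no array of a group was well above background and the bound exceeded 1. For Rab23 and Rab40b it did not, so no fold is given. The scripts were tested on simulated data. Members were matched by accession to RefSeq (GRCm38.p6) for current names (55 of 57), and probe positions are in mm9. The members, role groups, pairs and lists were chosen with earlier results of these data known. Members with values by array are the 6 largest rises and falls among called members whose groups do not overlap (only 3 fell), and those known in EV release. Machinery genes named are the 2 of smallest p per class and direction whose groups do not overlap. The number of arrays limits the precision. Alternatives were other scalings, normexp (offset 50), the value table, other filters, slide or replicate number as a block, each slide alone, array weights, a robust trend, the methods' t-test and leaving out samples.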

Additional observations from a re-analysis of the deposited data

Results flagged for a closer look

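Among 32 groups of arrays examined (the named Rab genes and the count of detected members, in each of the 2 groups), 4 held a highest or lowest array whose gap to its nearest neighbour, divided by the range of the group, exceeded Dixon's critical value, which chance alone exceeds in about 5% of groups. Rab7 was at -2.75 in control replicate 4, above the other 3 controls. In PBS-treated replicate 3, Rab31 (-3.28) and Rab32 (-3.09) were below the other 4 arrays, and Rab2b (-3.02) was above them.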

How the results depend on the processing

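Of the named Rab genes, Rab5a, Rab6, Rab9, Rab11a, Rab13 and Rab43 kept direction and call in all 29 alternatives. Scaling on the 75th percentile over all probes, quantile normalisation, the median of detected probes, normexp then quantile, and the authors' values moved the members' median to 1.36, 1.22, 0.89, 0.52 and 0.52, and spike-in scaling and normexp with a percentile to 2.23 and 0.10. Calls higher and lower were then 39 and 2 against the spike-ins and 12 and 9 under normexp with a percentile. Of the 87 machinery genes tested, 57 were called higher and 5 lower against the spike-ins (62.4% and 5.03% of all genes). Under normexp with a percentile 7 were higher and 38 lower (13.2% and 32.6% of all genes). Lower calls were 7 with the percentile over all probes (9.46% of all genes). They were 28 with slide as a block (34.2% of all genes) and 32 with array weights (30.4%). Among genes detected on all arrays 8 machinery genes were higher, as were 2363 of all 7169 such genes. The members' median was 0.81 with detection on at least 1 array and 0.37 without a filter (6 lower; 14.5% of all genes). With probes of a gene averaged it was 0.87, and without control replicates 3 and 4 it was 0.77. On slide 1 and slide 2 it was 0.82 and 1.06, with 5 lower on each (31.4% and 30.3% of all genes). With array weights it was 0.84 (5 lower; 30.4% of all genes).

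Leaving out 1 array gave 22 to 25 higher and 3 to 4 lower members, medians of 0.764 to 0.996 (lowest without control replicate 4), detection differences of 6.87 to 10.2, 20 to 26 higher and 17 to 19 lower machinery genes, and 0 to 5 paralog pairs past the threshold. The pair count was 0 without any single PBS-treated array (smallest exact p 0.0286), without control replicate 4 (0.0179) or without control replicates 3 and 4 (0.0476), and 0 on either slide alone, where detection differed by 4.33 and 13 (exact p = 0.1 and 0.333). There fewer splits of fewer arrays cannot reach or only barely reach the threshold over 13 pairs. Under normexp with a percentile 3 pairs passed, and the cause was not tested.

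Signs turned for Rab35 (0.18 over all probes, 1.06 against spike-ins, 0.023 under normexp then quantile and 0.021 in the authors' values), Rab40c (0.69), Rabac1 (0.41) and Rab3ip (0.51) against spike-ins, and Rab27b (-0.37), Rab31 (-0.048), Tbc1d8b (-0.045), Rab3il1 (-0.19) and Rab40b/Rab40c (-0.039) under normexp with a percentile. Of ratios that did not pass, Rab5b/Rab5c turned to 0.033 with quantiles, 0.16 on slide 2 and 0.053 without control replicates 3 and 4, and Rab8a/Rab10 to -0.34 with the mean of probes, -0.094 on slide 2 and, on leaving out 1 array, ranged from -0.20 (without PBS-treated replicate 3) to 0.25 (without control replicate 4).

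With the replicate block, 23 members rose and 4 fell (median 0.89), while 28.6% of all genes rose and 23.5% fell. Of the named Rab genes only Rab31 then lost its call (0.72, adjusted p = 0.0544). The numbers do not pair the arrays: same-numbered arrays deviated from their group means together for replicates 1, 2 and 4 (correlations of 0.70, 0.73 and 0.74) but not 3 (-0.54), as the slides do. The methods' t-test called 27 members higher and 4 lower at p under 0.05 (33.7% and 22.6% of all genes). After Benjamini-Hochberg adjustment it called 24 and 4 (30.9% and 19.6% of all genes). Members near background rest on the few arrays that detected them.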
